A study of Homo sapiens with 12 samples.

Results

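The nucleolar ribosome biogenesis and RNA polymerase I (Pol I) genes are 38 genes, chosen by symbol, that code for proteins of the snoRNPs, the Pol I machinery, the nucleolar body and the maturation of the small and large ribosomal subunits. Each of the 38 had a row in both count tables of the series, among 28008 genes listed in the MUC1-C silencing table and 25435 in the MUC1-C overexpression table (UTP4 stood in the latter under its older symbol, CIRH1A). The rule that picks them uses symbols and no measured value, but the list was drawn up with earlier results of these data known. In the silencing experiment, LNCaP-ER cells, which are LNCaP prostate cancer cells selected for resistance to enzalutamide (ENZ), carried a MUC1 shRNA in a doxycycline (DOX) inducible, puromycin-selected vector and received DMSO vehicle or DOX at 500 ng/mL for 7 days, with 3 libraries in each group. All 6 of these libraries therefore share the ENZ resistance and the vector, and an effect of DOX itself cannot be told apart from that of the shRNA. In the overexpression experiment, 3 libraries of LNCaP cells were compared with 3 of LNCaP/MUC1-C OE cells, which express MUC1-C from a lentiviral vector. The controls are labelled wild-type while their columns are named vector, so whether they carried an empty vector is not settled here. The titles of the OE libraries read shMUC1-C OE, and what the prefix sh stands for in an overexpression line is not settled here either. Whether the transduced cells were pools or single clones is not given in the sources used here.

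Ribosomes are made in the nucleolus, where Pol I transcribes the ribosomal RNA (rRNA) precursor from the rDNA repeats. Small nucleolar RNAs (snoRNAs) in box C/D particles direct ribose methylation and those in box H/ACA particles direct pseudouridylation of this precursor, which a large set of helicases, WD-repeat proteins and GTPases then cuts and folds into subunits. The genes of this machinery are a textbook class of MYC targets, and cancer cells are known for enlarged nucleoli.

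Several properties of the libraries bear on what follows. The vehicle libraries held 26, 10 and 13 counts of MUC1, and those labelled DOX held 3, 42 and 8 (log2 fold change 0.12, standard error 0.93, edgeR adjusted p = 0.935), so that DOX replicate 2 went against its label, and libraries are named by their label throughout. That library also had 0 counts for 11.2% of the genes listed, against 28.0% to 38.1% in the other 5 libraries of the experiment. With overexpression there were 30, 25 and 31 counts of MUC1 in LNCaP and 9168, 9959 and 12622 under the label LNCaP/MUC1-C OE. Total counts per library were 28045894 to 45807989 in the silencing and 13806856 to 19208944 in the overexpression experiment. The prostate luminal markers were well expressed in the LNCaP-ER libraries, where their sum over 10 genes was 4835 to 6238 CPM (counts scaled per library to equal depth). In the overexpression experiment the sum was 362 to 379 CPM in LNCaP and 102 to 113 CPM under the OE label. There 8 of 10 markers were called lower (80%, against 34.1% of all genes tested), while HOXB13 was not called (log2 fold change -0.10). KLK3, KLK2 and FOLH1 are defining genes of this lineage. They had 22.5 to 25.3, 1.56 to 1.64 and 7.06 to 8.97 CPM in LNCaP and 0 counts in every library labelled OE. The libraries labelled OE therefore went against the luminal identity of the line named in their label, and the part of this difference in the results below was not tested. The LNCaP libraries, counted separately from LNCaP-ER, also had a far lower luminal sum than the LNCaP-ER libraries. The luminal identity named in the LNCaP label was thus not well borne out either.

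On the scale of the counts, 9 of the 38 genes fell and 1 rose in the libraries labelled DOX, and 16 rose and 6 fell in the libraries labelled LNCaP/MUC1-C OE. A gene was called where the quasi-likelihood test of edgeR gave a p under 0.05 after adjustment over all genes tested (Benjamini-Hochberg), and all 38 passed the filter on low counts in both experiments. In either direction, 27.3% of all genes tested were called in the silencing and 67.3% in the overexpression experiment. The 9 genes that fell with DOX were NPM1, GNL3 and DDX21 of the nucleolar body, DKC1, the pseudouridine synthase, RRN3, the Pol I initiation factor, WDR43 of the small subunit and WDR12, NIP7 and DDX18 of the large subunit pathway. NOP10, a partner of DKC1, was the gene that rose. The 9 lower calls were 23.7% of the genes, against 14.5% called lower among all 14683 genes tested, and the single higher call was 2.63%, against 12.8%. Their median log2 fold change was -0.085, against -0.017 for all genes tested, and 26 of 38 were below 0. On the deposited TPM values, where the median of all genes tested was itself raised by 0.45 on the log2 scale, the same comparison called 0 of the 38 genes lower and 13 higher, against 2.25% and 43.2% of the 11404 genes tested on that scale. Before that shift was taken off, 24 of the 26 genes below 0 on the counts were above 0 on TPM, 7 of the 9 called genes among them, and NPM1 and WDR43 stayed below 0.

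With MUC1-C overexpression, the 16 genes that rose included all 3 box C/D core genes, FBL, NOP56 and NOP58, and also DKC1, UBTF, NCL, GNL3, DDX21, WDR75, NOP14, DDX10, BOP1, WDR12, BRIX1, EBNA1BP2 and MRTO4. The 6 that fell were NHP2, POLR1A, RRN3, TCOF1, NOP16 and RRS1. The 16 were 42.1% of the genes, against 33.2% called higher among all 13836 genes tested, and the 6 were 15.8%, against 34.1% called lower. The median log2 fold change was 0.091 over the 38 genes and -0.0092 over all genes tested. The changes were small in size. FBL and DDX21 were the only genes to rise, and RRS1 the only one to fall, by more than 0.5 on the log2 scale. With library size alone as the scale, which lowered the median of all genes to -0.16, 8 were called higher and 12 lower, and of all called genes 32.3% were higher, against 49.4% with TMM scaling.

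**Figure D1:**
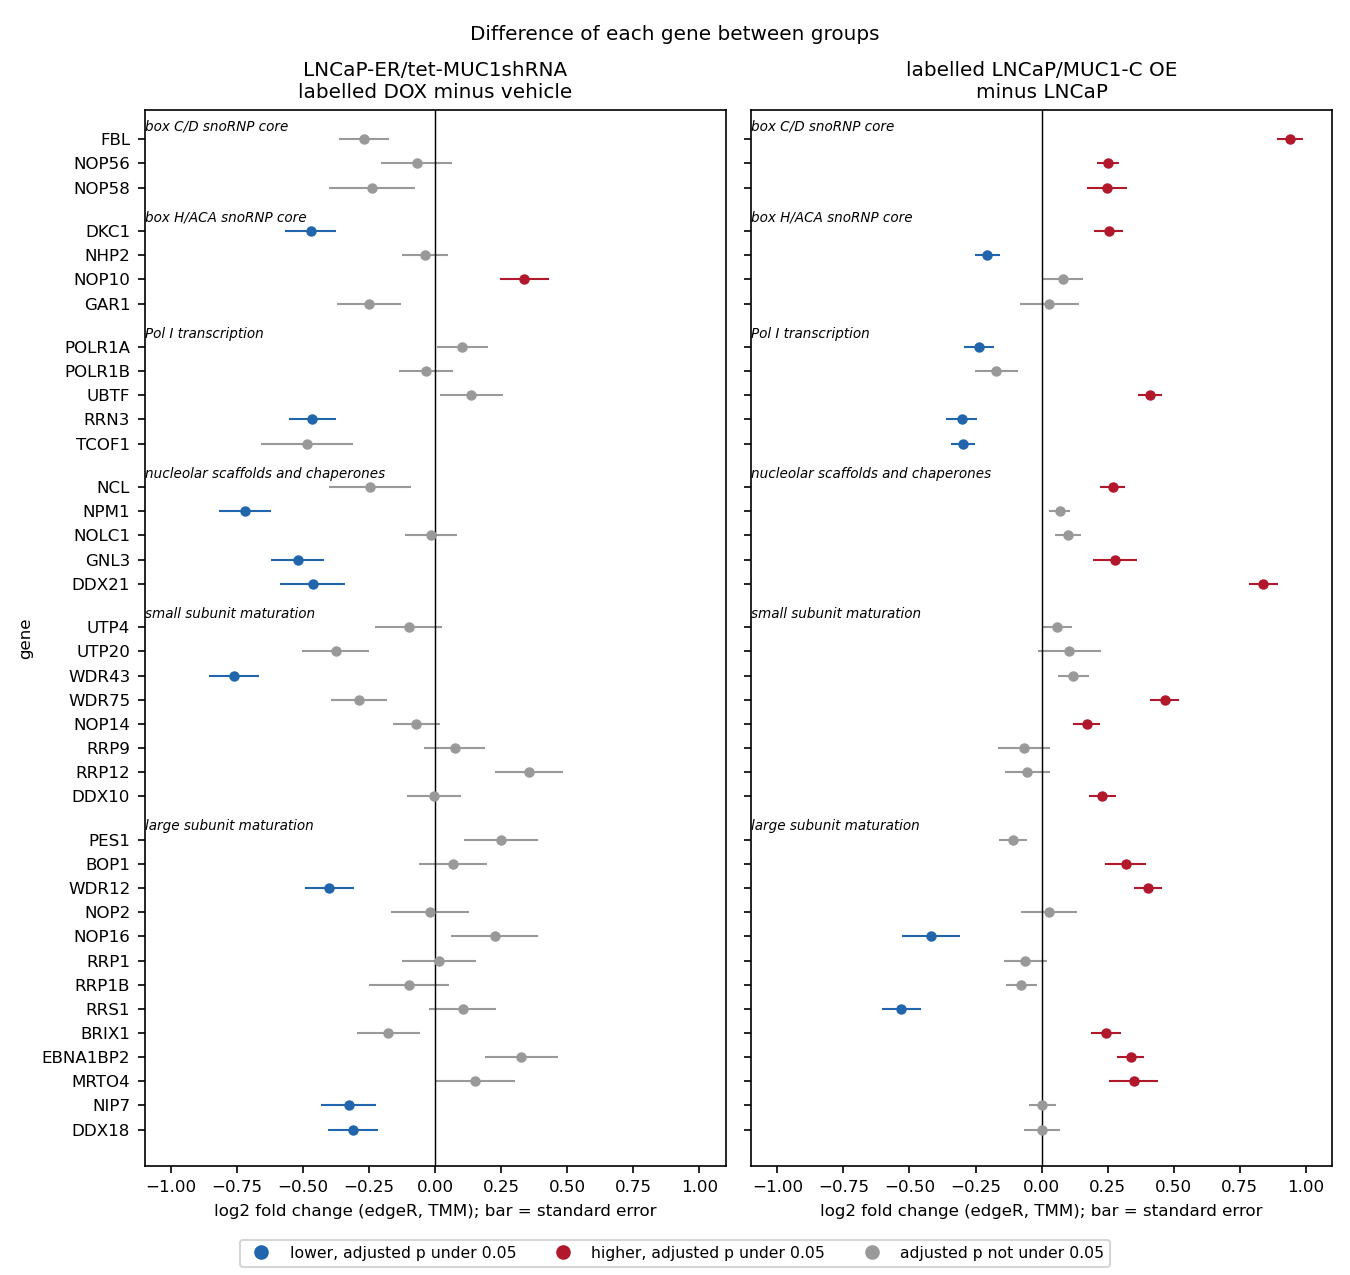
Log2 fold change (x axis) of each of the 38 genes (rows, by role) in the silencing experiment (left) and the overexpression experiment (right), from edgeR with 3 libraries per group. Points are estimates, bars are standard errors, and colours give the call. The 9 lower calls on the left are spread over 5 of the 6 roles (7 of them were above 0 on the TPM scale), and on the right FBL (0.94) and DDX21 (0.84) stand farthest to the right.

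In the silencing experiment the 38 log2 fold changes lay between -0.76 (WDR43) and 0.35 (RRP12). Their quartiles were -0.32 and 0.072 against -0.34 and 0.31 for all genes tested, so that the upper quartile was the lower one. In the overexpression experiment the quartiles were -0.065 and 0.27 against -0.38 and 0.30, and here the lower quartile stood higher. Farther out, both sides were short in both experiments. The 10th and 90th percentiles were -0.48 and 0.23 against -0.72 and 0.71 for all genes tested with DOX. With overexpression they were -0.25 and 0.41 against -1.05 and 0.62. The 38 genes thus had a narrower spread than all genes tested, on both sides. The groups did not overlap for 14 genes that were lower and 2 that were higher under the DOX label (36.8% and 5.26% of 38, against 23% and 21.2% of all genes tested). With MUC1-C this held for 17 higher and 8 lower genes (44.7% and 21.1%, against 34.4% and 35.9%).

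**Figure D2:**
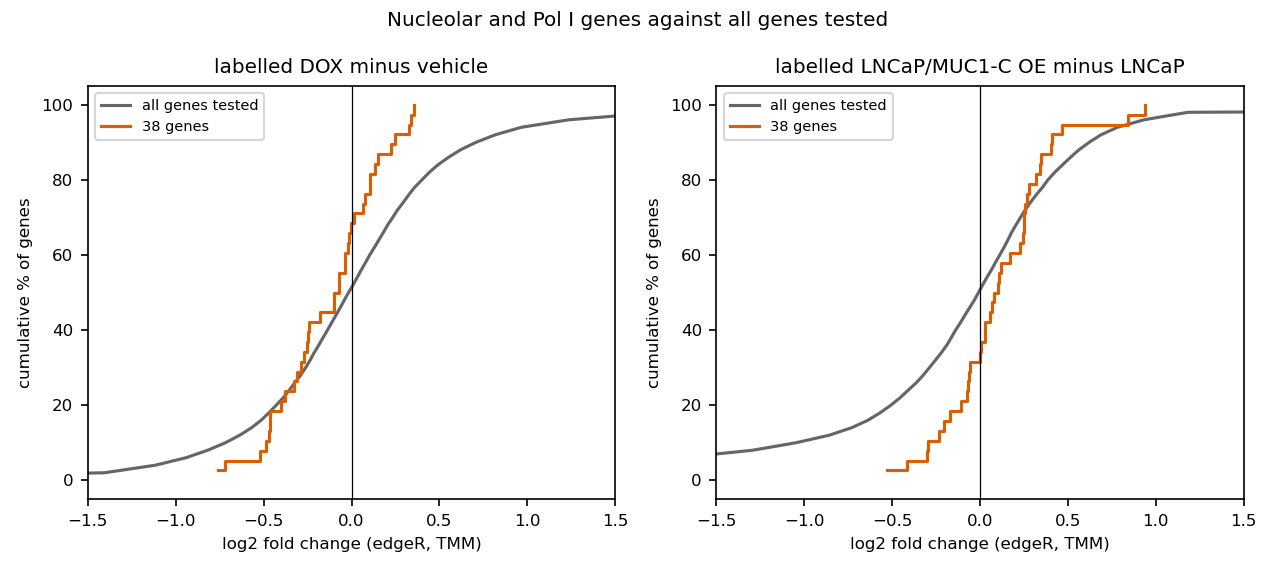
Cumulative percentage of genes (y axis) up to a given log2 fold change (x axis) for all genes tested (grey) and the 38 genes (orange) in both experiments. In the silencing experiment the orange line lies left of the grey one in its upper part, and in the overexpression experiment it lies right of it in its lower part. At its other end, too, the orange line is the narrower one in both experiments. The x axis leaves out genes beyond 1.5 in either direction.

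Taken side by side, the 2 experiments share no library. DKC1, GNL3, DDX21 and WDR12 were lower under the DOX label and higher under the OE label. RRN3 was lower in both. NPM1, WDR43, NIP7 and DDX18 fell with DOX and were not called in the overexpression experiment. A further 12 genes rose and 5 fell under the OE label and were not called with DOX. The difference between the experiments was not tested. The other 11 genes were not called in either, namely GAR1, POLR1B, NOLC1, UTP4, UTP20, RRP9, RRP12, PES1, NOP2, RRP1 and RRP1B. No gene was called in opposite directions with an absolute log2 fold change over 0.5 in both.

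The promoters of these genes were read for short motifs, since MYC with its partner MAX is known to bind the E-box CACGTG. The RefSeq promoter table (GRCh38.p14, 250 bases before to 50 after the start site) held 30 of the 38 genes. The table had no entry for BOP1, DDX18, NOLC1, NOP58, RRP12, RRP1B, RRS1 and TCOF1. CACGTG, which reads the same on both strands, was present in 11 of the 30 (36.7%), against 7.26% of all 35116 promoters and 10.3% of the promoters of genes tested in the silencing experiment. Of the 12 E-boxes in these promoters, 10 began within 50 bases of the start site. The stretches below run from 60 bases before the start site to 20 bases from it onward, 5′ to 3′ on the gene's strand, with CACGTG in capitals. They are shown because the same 6 letters lie at about the same place in WDR43, the gene that fell most with DOX, in FBL, the gene that rose most with MUC1-C, in NOP10, the gene that rose with DOX, and in UTP4, UTP20 and RRP9, which were not called in either experiment.
WDR43 (chr2:28894607-28894686, plus strand): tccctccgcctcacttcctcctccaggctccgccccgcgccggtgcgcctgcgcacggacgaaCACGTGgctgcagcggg
FBL (chr19:39846360-39846439, minus strand): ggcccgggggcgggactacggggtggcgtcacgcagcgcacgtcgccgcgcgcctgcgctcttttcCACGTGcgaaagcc
NOP10 (chr15:34343117-34343196, minus strand): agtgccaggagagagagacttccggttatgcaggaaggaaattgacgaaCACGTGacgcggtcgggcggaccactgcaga
UTP4 (chr16:69132589-69132668, plus strand): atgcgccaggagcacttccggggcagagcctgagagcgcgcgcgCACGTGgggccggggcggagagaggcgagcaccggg
UTP20 (chr12:101280045-101280124, plus strand): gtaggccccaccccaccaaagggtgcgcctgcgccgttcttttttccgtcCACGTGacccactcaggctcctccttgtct
RRP9 (chr3:51941885-51941964, minus strand): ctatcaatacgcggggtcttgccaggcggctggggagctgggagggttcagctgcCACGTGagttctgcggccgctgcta

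The E-box was present in 1 of 8 matched genes that fell with DOX and in 9 of 21 that were not called there. With overexpression it was present in 4 of 14 genes that rose, 0 of 4 that fell and 7 of 12 that were not called. Other motifs were also more frequent in these promoters than in the table as a whole, counting both strands. CACGCG was found in 13 of 30 (43.3%, against 11.4% of all promoters), the ETS-type motif CCGGAAG in 11 of 30 (36.7%, against 10.3%) and the palindromic NRF1 motif in 2 of 30 (6.67%, against 1.24%). Each motif was counted on its own, and matches of different motifs may overlap. A match of letters does not show that a factor was bound.

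A second feature that the choice of genes did not use is the snoRNA content of their introns. By the GENCODE v29 annotation, 6 of the 38 genes (15.8%) hold snoRNA genes on the same strand, against 1.91% of the genes tested in the silencing experiment that could be matched. They are NOP56 with 5, NOP58 with 4, DKC1 with 2, NCL with 3, GNL3 with 6 and WDR43 with 3 snoRNA genes. Of these 6, DKC1, GNL3 and WDR43 fell with DOX, where 23.7% of the 38 genes and 14.5% of all genes tested fell. NOP56, NOP58, DKC1, NCL and GNL3 rose with MUC1-C, where 42.1% of the 38 genes and 33.2% of all genes tested rose. A relation between snoRNA content and these calls was not tested.

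The box C/D particle core is made of FBL, the rRNA ribose methyltransferase, and its scaffolds NOP56 and NOP58. Under the OE label FBL showed the largest rise of all 38 genes. It had 193, 207 and 194 CPM in LNCaP and 377, 367 and 396 CPM under the OE label, a fold of 1.92 (log2 fold change 0.94, standard error 0.0484, edgeR adjusted p = 1.77e-11). Each library under the OE label was far above each LNCaP library. NOP58 had 214, 199 and 212 CPM in LNCaP and 216, 281 and 247 CPM under the OE label (log2 fold change 0.25, standard error 0.0757, edgeR adjusted p = 0.0111), and the lowest OE library lay just above the highest LNCaP library. NOP56 rose by the same amount with less spread (log2 fold change 0.25, standard error 0.0417, edgeR adjusted p = 4.32e-05). With DOX none of the 3 was called. FBL had 119, 133 and 117 CPM in vehicle and 108, 95.2 and 103 CPM under the DOX label (log2 fold change -0.27, standard error 0.0947, edgeR adjusted p = 0.0629), and although its groups did not overlap it missed the threshold. NOP56 had 176, 145 and 139 CPM in vehicle and 163, 123 and 153 CPM under the DOX label (log2 fold change -0.070, standard error 0.13, edgeR adjusted p = 0.731), with overlap of the groups, and NOP58 was at -0.24.

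In the box H/ACA particle, DKC1 is the pseudouridine synthase, which telomerase also needs, and NHP2, NOP10 and GAR1 are its partners. DKC1 fell with DOX and rose with MUC1-C. Its levels were 129.6, 140.4 and 134 CPM in vehicle and 106, 87.9 and 97.2 CPM under the DOX label (log2 fold change -0.47, standard error 0.0971, edgeR adjusted p = 0.00859), without overlap. With overexpression they were 249, 243 and 248 CPM in LNCaP and 265, 307 and 311 CPM under the OE label (log2 fold change 0.25, standard error 0.0557, edgeR adjusted p = 0.000636), again without overlap. None of its partners was called in the same direction as DKC1 in either experiment. NOP10 was the only one of the 38 genes called higher under the DOX label, with 137, 160.1 and 152 CPM in vehicle and 198, 182 and 188 CPM under the DOX label (log2 fold change 0.34, standard error 0.0923, edgeR adjusted p = 0.0263), and every library under that label was above every vehicle library. The NOP10 call was lost without vehicle replicate 1, 2 or 3 or without DOX replicate 1 or 3 (edgeR adjusted p = 0.0628, 0.0631, 0.104, 0.0917 and 0.0896). NHP2 was not called with DOX (96.8, 93.7 and 99.6 CPM in vehicle and 96.3, 88.0 and 97.9 CPM under the DOX label, log2 fold change -0.039) and fell under the OE label. There it had 179.8, 189.7 and 185 CPM in LNCaP and 158, 158 and 165 CPM under the OE label (log2 fold change -0.20, standard error 0.0466, edgeR adjusted p = 0.000885), and the groups stood apart. GAR1 was not called in either experiment. It had 61.1, 52.4 and 59.1 CPM in LNCaP and 48.0, 68.2 and 60.4 CPM under the OE label in the overexpression experiment (log2 fold change 0.030, standard error 0.11, edgeR adjusted p = 0.828), with the LNCaP libraries inside the range of the others, and a log2 fold change of -0.25 with DOX.

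Of the Pol I genes, POLR1A and POLR1B code for the catalytic core of the enzyme, UBTF for the factor that covers active rDNA, RRN3 for the factor that brings Pol I to its promoter and TCOF1 for treacle, a nucleolar partner of Pol I. RRN3 was the one member of this role called in the silencing experiment. It had 99.1, 103 and 109 CPM in vehicle and 79.6, 74.1 and 71.2 CPM under the DOX label (log2 fold change -0.47, standard error 0.0896, edgeR adjusted p = 0.00651), and the groups did not overlap. The same gene was also lower under the OE label, with 114, 109 and 110.0 CPM in LNCaP and 83.7, 98.1 and 88.7 CPM under the OE label (log2 fold change -0.30, standard error 0.0578, edgeR adjusted p = 0.000179). RefSeq lists 4 pseudogenes of RRN3, and how reads shared with them were counted is not stated. TCOF1 had the lowest estimate of this role with DOX (-0.48) but did not pass (0.068 as its edgeR adjusted p), and its libraries labelled DOX spread from 34.1 to 54.8 CPM. Under the OE label it fell, with 404, 399 and 411 CPM in LNCaP and 313, 336 and 338 CPM under the OE label (log2 fold change -0.30, standard error 0.0455, edgeR adjusted p = 1.68e-05). POLR1A also fell there, with 151, 143 and 148 CPM in LNCaP and 114, 127 and 134 CPM under the OE label (log2 fold change -0.24, standard error 0.0559, edgeR adjusted p = 0.00124). UBTF moved the other way. It had 189.8, 181 and 192 CPM in LNCaP and 247, 247 and 254 CPM under the OE label (log2 fold change 0.41, standard error 0.0456, edgeR adjusted p = 3.86e-07), and the 3 libraries under the OE label agreed closely. POLR1B was not called in either experiment. It had 82.1, 87.7 and 86.1 CPM in vehicle and 92.5, 74.7 and 82.5 CPM under the DOX label (log2 fold change -0.035, standard error 0.10, edgeR adjusted p = 0.828) in the first and 116, 118 and 117 CPM in LNCaP and 86.7, 111 and 114 CPM under the OE label (log2 fold change -0.17, standard error 0.0827, edgeR adjusted p = 0.0857) in the second, where OE replicate 1 was far below the other libraries. Without OE replicate 3, POLR1B passed the threshold at -0.24 (edgeR adjusted p = 0.0226). Without OE replicate 1, the low library, it was farthest from passing (edgeR adjusted p = 0.292). With MUC1-C, 3 of 5 Pol I genes fell (60%, against 34.1% of all genes tested) and 1 rose (20%, against 33.2%). With DOX 1 of 5 fell (20%, against 14.5% of all genes tested), and UBTF and POLR1A stood at 0.14 and 0.10.

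The nucleolar scaffolds and chaperones held 3 of the 9 genes that fell with DOX. These were 60% of the 5 genes of this role, against 14.5% of all genes tested. The 5 genes had a median log2 fold change of -0.46, the lowest of the 6 roles. NPM1, nucleophosmin, which shuttles ribosomal particles and histones, fell with little spread. It had 1109, 1215 and 1257 CPM in vehicle and 738, 726 and 711 CPM under the DOX label (log2 fold change -0.72, standard error 0.0983, edgeR adjusted p = 0.00167), a change of 1.65-fold between groups that stood well apart. RefSeq lists 50 pseudogenes of NPM1, the most of the 38 genes, and how reads shared with them were assigned is not stated. GNL3, nucleostemin, a GTPase of stem and tumour cells, fell by 0.52 on the log2 scale (edgeR adjusted p = 0.00661). DDX21, a helicase that couples Pol I with rRNA processing, fell by 0.46 (edgeR adjusted p = 0.0229), a call that was lost without vehicle replicate 2 or 3 or DOX replicate 3 (edgeR adjusted p = 0.0908, 0.102 and 0.0957). NOLC1, which bridges snoRNPs and Pol I, had 344, 354 and 325 CPM in vehicle and 364, 304 and 343 CPM under the DOX label (log2 fold change -0.017, standard error 0.0986, edgeR adjusted p = 0.913), and its groups overlapped. NCL, nucleolin, was at -0.25 and not called.

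With MUC1-C overexpression all 5 scaffold genes had estimates above 0, and DDX21, GNL3 and NCL were called (60%, against 33.2% of all genes tested). DDX21 had 680.1, 657 and 679 CPM in LNCaP and 1090.1, 1294 and 1226 CPM under the OE label (log2 fold change 0.84, standard error 0.054, edgeR adjusted p = 3.98e-10), a fold of 1.79. The groups were far apart, as for FBL. NPM1 had 2163, 2102 and 2124 CPM in LNCaP and 2266, 2261 and 2175 CPM under the OE label (log2 fold change 0.069, standard error 0.0401, edgeR adjusted p = 0.137), and although the groups did not overlap the difference was too small to pass. GNL3 and NCL rose by 0.28 and 0.27. Summed over the 5 genes, the level was 3420 to 3605 CPM in vehicle and 2420 to 2785 CPM under the DOX label, and 5355 to 5561 CPM in LNCaP and 6265 to 6923 CPM under the OE label. Bulk RNA cannot tell apart fewer cells with active nucleoli from less RNA of these genes in each cell.

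Among the small subunit genes, WDR43, WDR75 and UTP4 are parts of the complex that first binds the rRNA precursor. UTP20, NOP14 and RRP9 belong to the processome that forms on it, and RRP12 and DDX10 are further factors of small subunit maturation. WDR43 showed the largest fall of the 38 genes with DOX. It had 161, 168 and 173 CPM in vehicle and 106, 89.4 and 101 CPM under the DOX label (log2 fold change -0.76, standard error 0.0945, edgeR adjusted p = 0.00117), a change of 1.70-fold. The groups were well apart and the call held with each library left out. Its complex partners were not called, with WDR75 at -0.29 and UTP4 at -0.10. UTP20 lay just short of the threshold at -0.38 (edgeR adjusted p = 0.0556) and passed without DOX replicate 1, as did WDR75 (edgeR adjusted p = 0.0270 and 0.0449). RRP12 had the highest estimate of the 38 genes with DOX, 0.35, and passed without DOX replicate 2 (0.52, edgeR adjusted p = 0.00313). DDX10 had the estimate nearest to 0 of this role, with 47.0, 56.2 and 50.5 CPM in vehicle and 54.5, 49.7 and 49.1 CPM under the DOX label (log2 fold change -0.0043, standard error 0.10, edgeR adjusted p = 0.979). With MUC1-C, WDR75 rose, with 118, 121 and 119 CPM in LNCaP and 152, 177 and 166 CPM under the OE label (log2 fold change 0.47, standard error 0.0547, edgeR adjusted p = 7.41e-07), and no libraries overlapped. NOP14 and DDX10 rose by 0.17 and 0.23, the former lost without LNCaP replicate 1 (edgeR adjusted p = 0.0566). RRP12 had 55.1, 59.4 and 59.1 CPM in LNCaP and 47.0, 56.8 and 63.1 CPM under the OE label (log2 fold change -0.055, standard error 0.0852, edgeR adjusted p = 0.585), and its groups overlapped. WDR43 stood at 0.12 and was not called.

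The large subunit genes include PES1, BOP1 and WDR12, which form the PeBoW complex, the rRNA methyltransferase NOP2, the helicase DDX18, and the assembly factors NOP16, RRP1, RRP1B, RRS1, BRIX1, EBNA1BP2, MRTO4 and NIP7. With DOX, 3 of 13 fell (23.1%, against 14.5% of all genes tested) and none rose, and their median was 0.014. WDR12 had 67.6, 68.9 and 70.1 CPM in vehicle and 56.5, 50.4 and 49.6 CPM under the DOX label (log2 fold change -0.40, standard error 0.092, edgeR adjusted p = 0.0131), without overlap. Its PeBoW partners were not called, PES1 at 0.25 and BOP1 at 0.067. The WDR12 call was lost without vehicle replicate 2 or 3 or DOX replicate 3 (edgeR adjusted p = 0.0556, 0.0644 and 0.0595). NIP7 (-0.33) and DDX18 (-0.31) passed only just (edgeR adjusted p = 0.0438 and 0.0392). DDX18 was lost with any of the 6 libraries left out (0.0591 to 0.123 as edgeR adjusted p), and NIP7 with any but vehicle replicate 1 (0.0654 to 0.156). RRP1 had 19.1, 20.9 and 18.7 CPM in vehicle and 19.6, 16.7 and 22.8 CPM under the DOX label (log2 fold change 0.014, standard error 0.14, edgeR adjusted p = 0.95), and the vehicle libraries lay within the range of the others.

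Under the OE label, 5 of the 13 large subunit genes rose (38.5%, against 33.2% of all genes tested) and 2 fell (15.4%, against 34.1%), so that the higher share was near that of all genes. WDR12 had 77.6, 72.1 and 77.8 CPM in LNCaP and 96.0, 101 and 103 CPM under the OE label (log2 fold change 0.40, standard error 0.054, edgeR adjusted p = 3.64e-06), and BOP1 rose with it by 0.32, while PES1, the third subunit of PeBoW, was at -0.11 and not called. RRS1 was the gene that fell most. It had 75.7, 77.1 and 79.1 CPM in LNCaP and 45.7, 57.7 and 57.0 CPM under the OE label (log2 fold change -0.53, standard error 0.0735, edgeR adjusted p = 6.4e-06), with OE replicate 1 the lowest. NOP16 likewise fell, with 58.9, 62.9 and 63.1 CPM in LNCaP and 36.2, 50.9 and 51.1 CPM under the OE label (log2 fold change -0.42, standard error 0.11, edgeR adjusted p = 0.00643). BRIX1, EBNA1BP2 and MRTO4 rose by 0.25, 0.34 and 0.35. DDX18 had 291, 249.8 and 284 CPM in LNCaP and 252, 300.5 and 274 CPM under the OE label (log2 fold change 0.0019, standard error 0.0672, edgeR adjusted p = 0.982), and the groups overlapped.

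**Figure D3:**
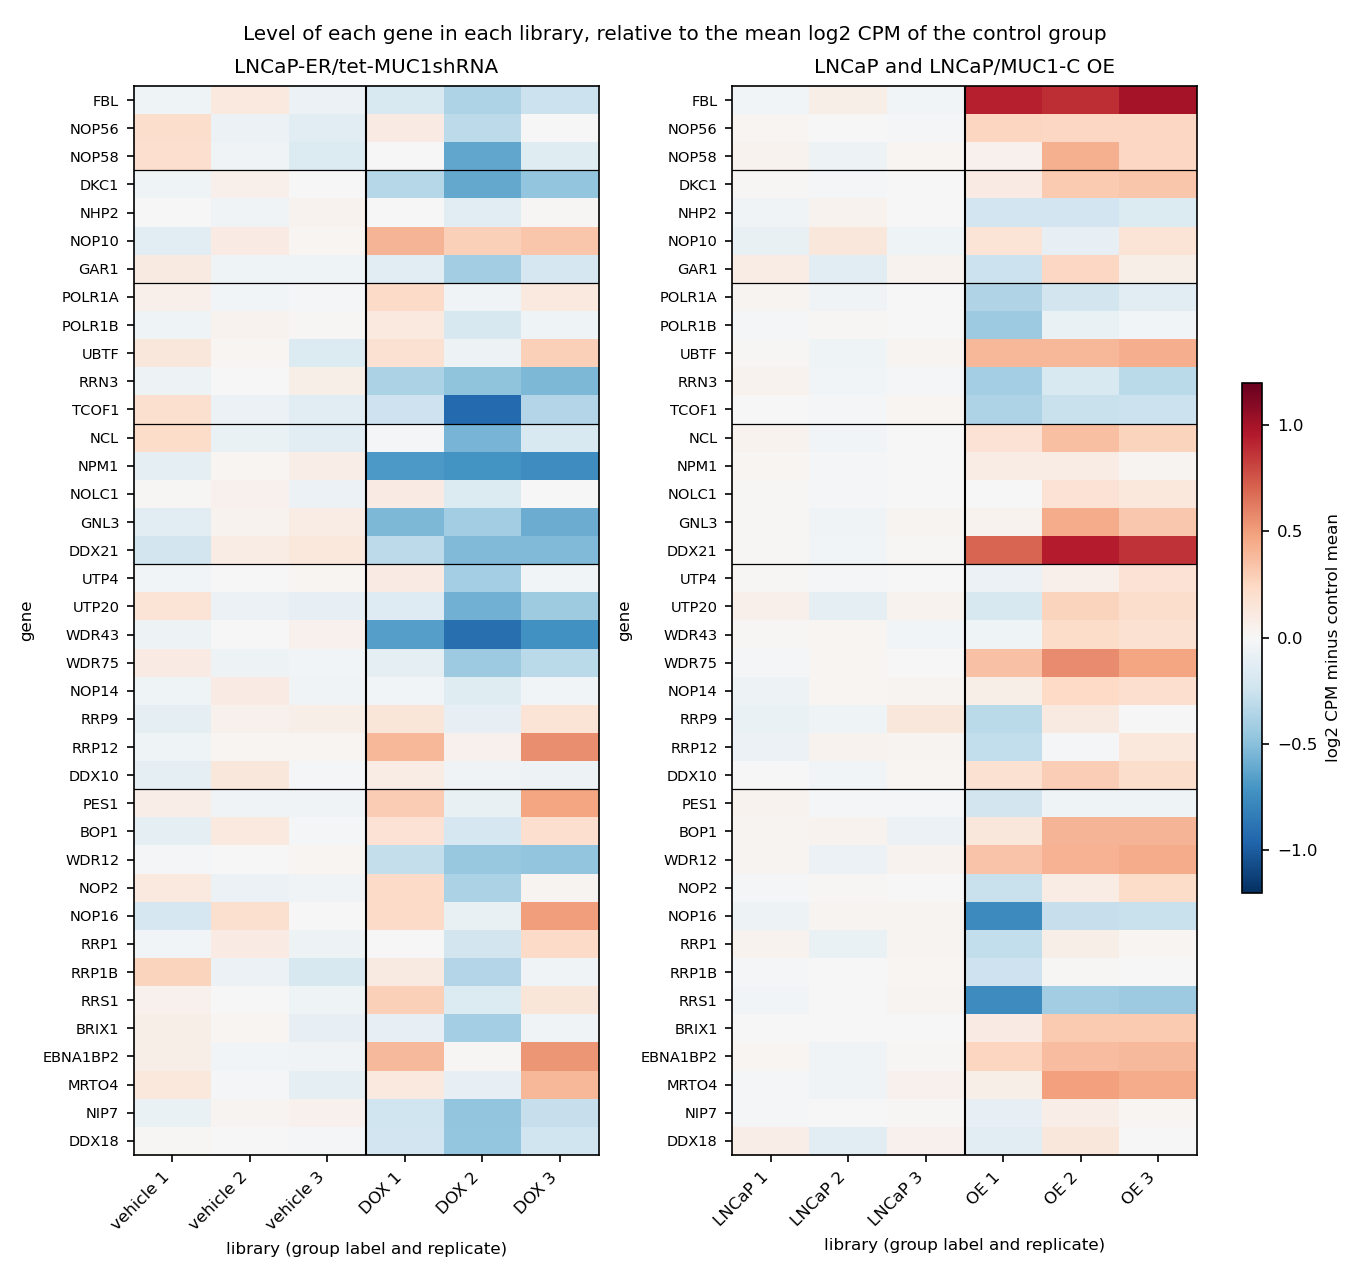
Level of each of the 38 genes (rows, in the order of the roles, with lines between roles) in each library (columns), as log2 CPM minus the mean of the control group. Blue is lower and red higher. The columns of DOX replicate 2 on the left and OE replicate 1 on the right are bluer than those of the other libraries with the same label.

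In both experiments 1 library under the treated label was lower than its replicates over most of these genes. DOX replicate 2 had the lowest level of its group for 33 of the 38 genes, against 40.3% of all genes tested. OE replicate 1 had the lowest level of its group for 34 of the 38, against 37.2% of all genes tested. Without DOX replicate 2, 7 genes were called lower and 4 higher (NOP10, RRP12, PES1 and EBNA1BP2), and the median turned from -0.085 to 0.044. Of all genes tested in that fit, 17.3% were called lower and 18.0% higher, against 14.5% and 12.8% with all libraries. Without OE replicate 1, 6 were called lower and 21 higher, adding NOLC1, UTP4, UTP20, WDR43 and NOP2, and the median rose to 0.16. There 34.3% of all genes tested were called lower and 33.2% higher. DOX replicate 2 is the library that went against its label for MUC1. Without vehicle replicate 2 or 3 or DOX replicate 3, 5 genes were called lower in each case. The share called lower among all genes tested also fell in these fits, from 14.5% to 8.22%, 7.61% and 7.77%. DKC1, RRN3, NPM1, GNL3 and WDR43 were called lower in all 13 alternatives computed from the counts. With overexpression, 8 genes were called higher (FBL, NOP56, UBTF, NCL, DDX21, WDR75, WDR12 and EBNA1BP2) and 6 lower in all 13.

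Levels of different genes can be compared only per length, which the deposited TPM values of the silencing experiment allow. In the vehicle libraries NPM1 was the most abundant at 442 ± 35.9 TPM (SD, n = 3), followed by NOP10 at 361 ± 36.8, NCL at 192 ± 54.8 and GNL3 at 141 ± 9.42 TPM. The Pol I genes were near the lower end, between 6.34 ± 1.15 TPM for POLR1A and 10.7 ± 2.62 TPM for UBTF, and MRTO4 was the lowest at 4.95 ± 1.13 TPM. Of the 37 pairs of neighbours in this order, the ranges of 5 did not overlap. These were NPM1 over NOP10, NOP10 over NCL, GNL3 over NHP2, DDX21 over FBL and FBL over NOLC1. The ranges of the other neighbours overlapped, which does not exclude a difference held within each library. NOP56 and NOP58 are such a pair, and the ratio of NOP58 to NOP56 was 0.771, 0.792 and 0.761 in the vehicle libraries. Within complexes, TPM levels ranged from near equal to far apart. The TPM of NOP10 was 18.2 to 19.4 times that of DKC1 in vehicle and 32.0 to 35.6 times under the DOX label, without overlap. The ratio of WDR12 to PES1 was 1.45 to 1.63 in vehicle and 0.809 to 1.21 under the DOX label, also without overlap, and that of BOP1 to PES1 was 0.873 to 1.11 and 0.821 to 0.918. Such ratios within a library do not depend on its scaling.

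**Figure D4:**
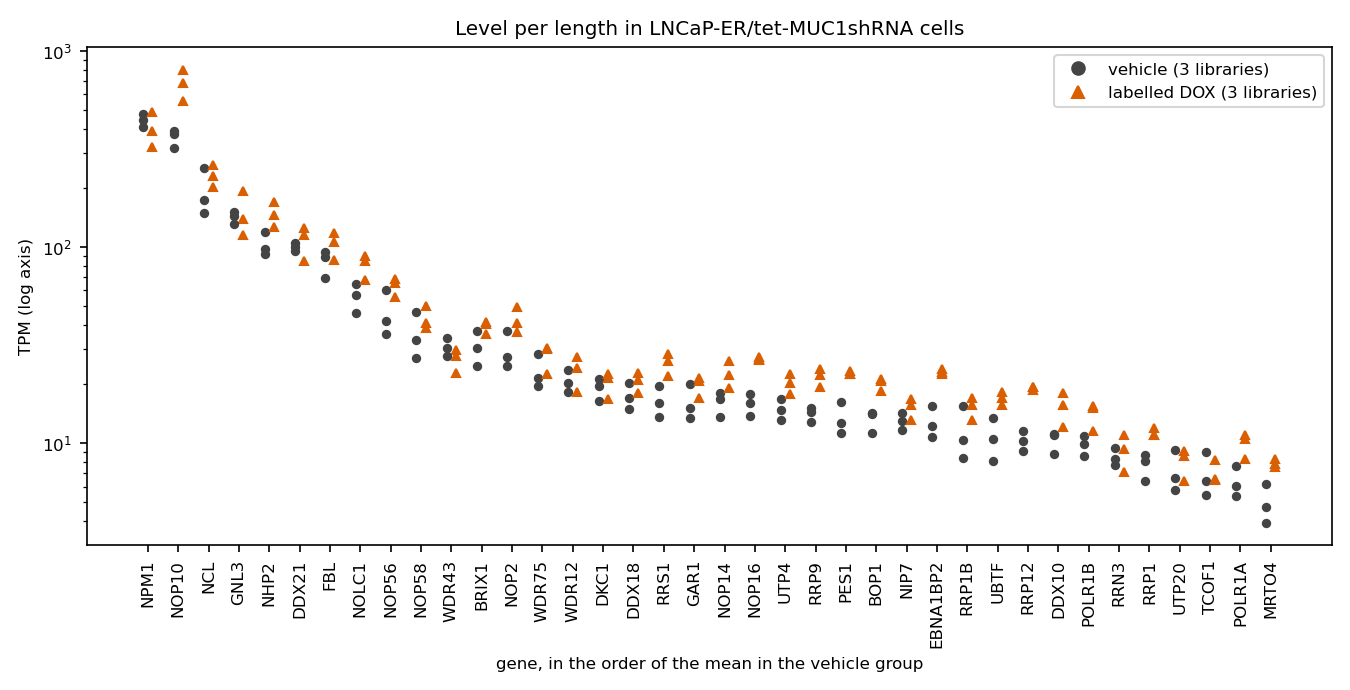
TPM (y axis, log scale) of each of the 38 genes (x axis, ordered by the vehicle mean) in the 3 vehicle libraries (circles) and the 3 libraries labelled DOX (triangles). NPM1 and NOP10 lead and MRTO4 is last. Most triangles lie above the circles. RN7SK, which shares the scale, held 35.2% to 37.7% of TPM in vehicle and 24.6% to 31.4% under the DOX label.

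Relative to the median of all genes on the log2(TPM + 1) scale, WDR43 was at -0.65, NPM1 at -0.61, GNL3 and TCOF1 at -0.41, DKC1 and RRN3 at -0.37, DDX21 at -0.35 and WDR12 at -0.30. These 8 genes were the lowest of the 38 on this scale, and both scales come from the same libraries. That they were also below 0 on the counts is therefore no separate support. NIP7 and DDX18, also called lower on the counts, were at -0.24 and -0.22. At the other end stood NOP10 at 0.45, RRP12 at 0.38 and EBNA1BP2 at 0.37. The median of the 38 genes was 0.442 on this scale and lay 0.0080 below that of all genes.

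The rest of the pathway was read from lists of other genes, whose counts are to be read against the 14.5% of all genes tested that fell and the 12.8% that rose with DOX. Of 14 other Pol I genes, 4 fell (28.6%) and 1 rose (7.14%) with DOX, and their median log2 fold change was -0.30, below that of the 5 Pol I genes described above. TAF1D, a subunit of the selectivity factor of the rDNA promoter, fell by 0.58 (edgeR adjusted p = 0.00329). BAZ2A, which silences rDNA repeats, rose by 0.41 (edgeR adjusted p = 0.0334). Of 46 other small subunit genes, 8 fell (17.4%) and 5 rose (10.9%), both near the shares of all genes, with UTP25 at -0.58 and DDX49 at 0.65. Of 41 other large subunit genes, 3 fell and 3 rose (7.32% each), with RSL24D1 at -0.93 and ZNF622 at 0.53. Of 14 RNA exosome genes, 1 fell, EXOSC8 at -0.59. The snoRNA host genes, whose introns hold the guide RNAs of the box C/D and H/ACA particles, had 5 lower (35.7%) and 0 higher calls among 14 tested and a median of -0.41. At an unadjusted p under 0.05 there were 7. SNHG1 had the smallest p of them, with 103, 112 and 121 CPM in vehicle and 74.9, 58.7 and 63.7 CPM under the DOX label (log2 fold change -0.77, standard error 0.12, edgeR adjusted p = 0.00247). The medians of the other small subunit, other large subunit and exosome lists were -0.038, -0.040 and -0.12.

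Under the OE label more genes rose than fell in each of these lists, where 33.2% of all genes tested rose and 34.1% fell. Of the other Pol I genes 8 rose (57.1%) and 1 fell, led by TAF1A at 1.26 against PWP1 at -0.19, and of the other small subunit genes 18 rose (39.1%, near the share of all genes) and 7 fell (15.2%), led by UTP25 at 1.24 against UTP23 at -0.49. Of the other large subunit genes 18 rose (43.9%) and 7 fell (17.1%), with NVL at 1.02 and MAK16 at -0.46. Of the exosome genes 9 rose (64.3%) and 2 fell, with EXOSC10 at 0.79 and EXOSC4 at -0.49. Of 15 snoRNA host genes 9 rose (60%) and 4 fell (26.7%), with SNHG3 at 1.05 and SNHG6 at -0.41. UTP25, a processome factor, was called in opposite directions. It had 51.5, 57.9 and 59.3 CPM in vehicle and 41.7, 35.3 and 35.8 CPM under the DOX label (log2 fold change -0.58, standard error 0.11, edgeR adjusted p = 0.00592) in the silencing and 41.7, 41.6 and 42.2 CPM in LNCaP and 92.8, 95.9 and 108 CPM under the OE label (log2 fold change 1.24, standard error 0.0623, edgeR adjusted p = 1.3e-11) in the overexpression experiment. The medians of these lists were 0.076 to 0.26, against 0.091 for the 38 genes. The log2 fold changes of the overexpression experiment differed by chromosome, as described below. The genes of these lists, UTP25 among them, were not set beside their chromosomal neighbours. The part of chromosomal position in these calls was not tested.

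MYC, the transcription factor known to drive this gene class, was lower under the DOX label. It had 375, 623 and 622 CPM in vehicle and 391, 376 and 313 CPM under the DOX label (log2 fold change -0.59, standard error 0.19, edgeR adjusted p = 0.0491), and since vehicle replicate 1 was as low as the libraries labelled DOX the groups overlapped. The MYC antagonists MXD1 and MXD4 rose with DOX by 1.02 and 0.56, and MXI1, of the same family, fell by 0.81. Under the OE label MYC was higher by a small amount, with 105, 115 and 115 CPM in LNCaP and 129.7, 121 and 123 CPM under the OE label (log2 fold change 0.16, standard error 0.0522, edgeR adjusted p = 0.0117). MXD1 stood lower there at -0.71, and MYCL, MGA, MXI1 and MAX were higher by 0.45, 0.25, 0.24 and 0.14. MYCN fell by 0.89 at a very low level, at or below 1.23 CPM. The relation of MYC to any of the 38 genes was not tested.

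Proliferation markers moved with the groups in both experiments. With DOX, 11 of 13 fell (84.6%, against 14.5% of all genes tested), and their median was -1.08. All 13 were lower without overlap, as were 23% of all genes tested. Their summed level was 1590.2 to 2158 CPM in vehicle and 549 to 1139 CPM under the DOX label, where the lowest was DOX replicate 2. With MUC1-C, 9 of 13 rose (69.2%, against 33.2% of all genes tested) and none fell. The median was 0.31, and the summed level was 2947 to 3033 CPM in LNCaP and 3950 to 4118 CPM under the OE label. In the silencing experiment the stromal and endothelial markers summed to at most 23.2 CPM and the leukocyte markers to at most 3.84 CPM in any library. With overexpression the neuroendocrine markers summed to 94.9 to 101 CPM in LNCaP and 102 to 120 CPM under the OE label, and the stromal and endothelial markers to 54.3 to 59.7 and 41.5 to 45.9 CPM. The part of these lists and of the proliferation markers in the changes of the 38 genes was not tested.

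In the overexpression experiment the log2 fold changes also differed by chromosome. The median was 0.38 over 1255 genes of chromosome 1 and 0.35 over 891 genes of chromosome 19, against -0.46 over 433 genes of chromosome 8, where 74.1% were called lower. With DOX the same chromosomes had medians of -0.0092, 0.068 and -0.0096. This was examined after the values had been seen, by setting each of the 38 genes beside the other tested genes within 10 Mb on either side. Across the 38 genes, Pearson's r between a gene's log2 fold change and the median of its neighbours was 0.67 (Spearman's rho 0.52) in the overexpression and 0.26 (rho 0.29) in the silencing experiment. Genes that lie close together share neighbours, and all points share the same libraries.

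Set against their neighbours, the genes that rose with MUC1-C were of differing kinds. FBL on chromosome 19 rose by 0.94 where its 314 neighbours had a median of 0.35. DDX21 on chromosome 10 rose by 0.84 where the median was 0.66, within the quartiles of its neighbours. EBNA1BP2 and MRTO4 on chromosome 1 were also within the quartiles of theirs, whose medians were 0.43 and 0.34. BOP1 on chromosome 8 rose by 0.32 where the median was -0.48, and stood the farthest from its neighbourhood. Each of the 6 genes that fell was within the quartiles of its neighbours. RRS1, also on chromosome 8, stood at -0.53 beside a median of -0.41, and TCOF1 on chromosome 5 at -0.30 beside -0.45. Of the 38 genes, 15 were above the upper quartile of their neighbours, 23 within the quartiles and 0 below them. With DOX 8 were below the quartiles, 28 within and 2 above, and among the genes that fell WDR43 stood the farthest below, at -0.76 beside a median of 0.037. The part of the chromosomal position in the changes was not tested.

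**Figure D5:**
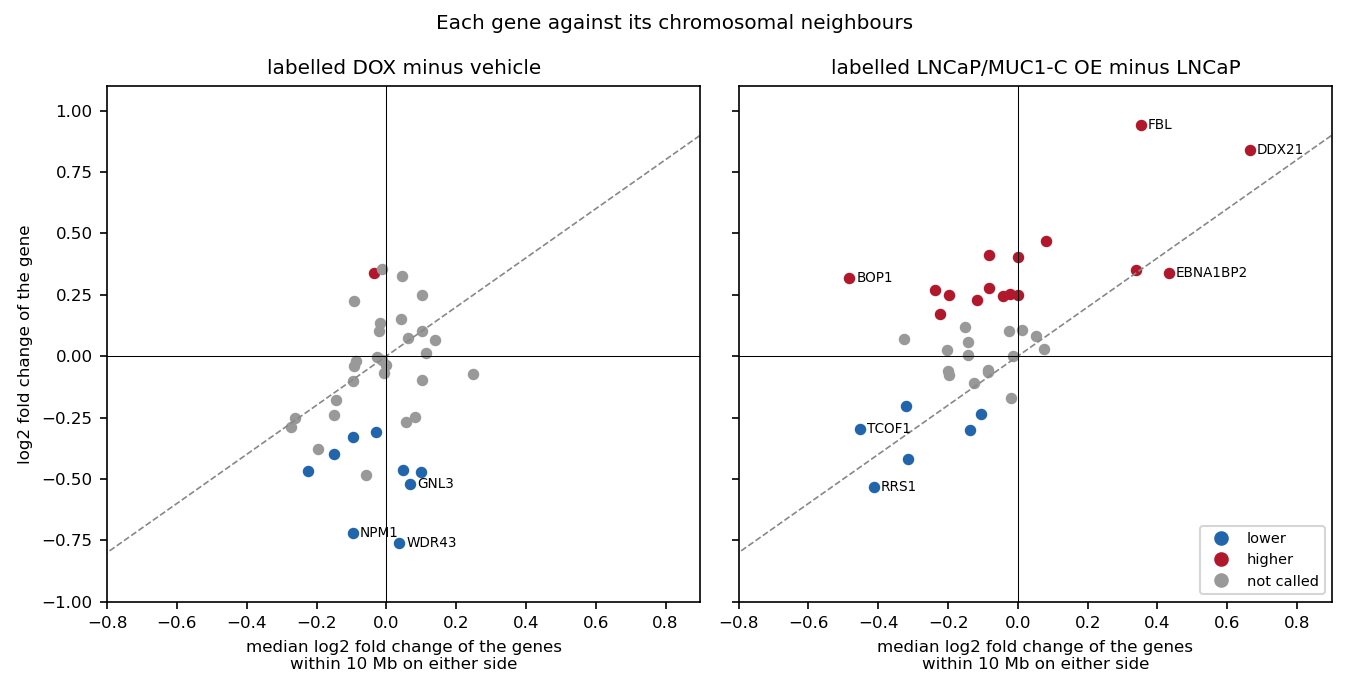
Log2 fold change of each of the 38 genes (y axis) against the median log2 fold change of the other tested genes within 10 Mb on either side (x axis), in the silencing experiment (left) and the overexpression experiment (right), with colours by call. On the dashed line a gene equals its neighbours. In the overexpression experiment RRS1 and DDX21 lie near the line, while FBL and BOP1 lie well above it, and in the silencing experiment the neighbour medians stay between -0.27 and 0.25.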

How the data were processed

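mRNA-Seq was analyzed for 12 libraries in 4 groups of 3, cultured in triplicate. p-values thus measure the spread between these cultures, which may be technical. The authors deposited raw read counts per gene symbol for both experiments, and TPM values (counts divided by gene length and scaled by the authors to the same sum in every library) for the silencing experiment. The submitters' processing notes name STAR, DESeq2 and GRCh38 (hg38), while the counter, annotation and versions are not given in the sources used here. A further 12 columns of per-sample values were not used. No row lacked a gene name. Each count table was fitted separately in edgeR 4.0.16 (R 4.3.3) with TMM scaling, filterByExpr and the robust quasi-likelihood test, called at an adjusted p under 0.05. Standard errors were derived from the fold change and its F statistic. CPM used the TMM-scaled library sizes. DESeq2 1.42.0, other scalings and filters, limma 3.58.1 on log2(TPM + 1) or log2(TPM + 0.1), and fits without each library were alternatives. The edgeR fit was tested on simulated data. Groups were called non-overlapping when every library of one lay above every library of the other. Depth was 13806856 to 45807989 counts per library, and intervals from counts would cover counting error only.

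The members and lists were chosen with earlier results of these data known. Values in every library are given, per experiment and role, for the genes with the smallest and the largest p and for those called against the main direction. From each list of other pathway genes the gene with the smallest p in each direction was named, besides MYC and called genes of its network. Other genes are given by log2 fold change. Promoter windows are from RefSeq (GRCh38.p14) and snoRNA genes from GENCODE v29. The comparison with neighbouring genes was chosen after seeing the values.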

Additional observations from a re-analysis of the deposited data

How the results depend on the processing

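Over the alternatives computed from the counts, the 38 log2 fold changes kept their sign in 458 of 494 values in the silencing and 459 of 494 in the overexpression experiment, and every change of sign was in a gene not called in the text. Over those from TPM they kept it in 42 of 114. In the silencing experiment, library size alone and upper-quartile factors each gave 2 higher calls, and no filter on low counts gave 0 higher and 7 lower calls. With log2(TPM + 1), 0 genes were called lower and 13 higher with a median of 0.44, with log2(TPM + 0.1) 0 and 13 with a median of 0.47, and with log2(TPM + 1) unfiltered 0 and 5 with a median of 0.44. With log2(TPM + 1), 24 of the 26 genes below 0 turned. Among them, those called on either scale turned to 0.078 for DKC1, 0.082 for RRN3, 0.53 for NOLC1, 0.038 for GNL3, 0.096 for DDX21, 0.51 for DDX10, 0.15 for WDR12, 0.21 for NIP7 and 0.23 for DDX18. These values do not depend on the filter, without which NOLC1 and DDX10 were not called. With 0.1 in place of 1 they were 0.081, 0.089, 0.54, 0.038, 0.097, 0.55, 0.15, 0.22 and 0.24 in the same order. The median of all genes tested was 0.45 with log2(TPM + 1) and 0.52 with log2(TPM + 0.1). With library size alone, the overexpression experiment had 12 lower and 8 higher calls, a median of -0.063 and NIP7 at -0.15, where the median of all genes was -0.16. Upper-quartile factors lowered the share of higher calls among all called genes there to 38.6%, and raised it to 55.6% in the silencing experiment, where library size alone gave 59.6%, TMM 46.8% and log2(TPM + 1) 95.04%. DESeq2 called 7 lower and 1 higher in the silencing and 6 lower and 16 higher in the overexpression experiment.

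With each library left out in turn, 5 to 9 genes were called lower and 0 to 4 higher in the silencing experiment (median -0.19 to 0.044). Of all genes tested, 7.61% to 17.3% were called lower and 5.49% to 18.0% higher in these fits. In the overexpression experiment 6 to 7 were called lower and 15 to 21 higher (median 0.073 to 0.16), against 31.0% to 34.3% and 29.6% to 33.2% of all genes tested. The cause of these changes was not tested. With the replicate block, 10 were called lower and 1 higher in the silencing experiment (TCOF1 and UTP20 added, NIP7 lost) and 7 lower and 16 higher in the overexpression experiment (POLR1B added). Samples with the same number did not deviate together (correlations of -0.0739 to 0.0868 and -0.149 to -0.0292), so the numbers were not treated as pairs. TPM values carry no depth.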
